A study of Mus musculus with 6 samples.

Results

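The genes described here are the CDC50 subunit Tmem30a, its paralog Tmem30b and 6 P4-ATPases, the phospholipid flippases Atp8a1, Atp8a2, Atp8b1, Atp8b2, Atp11a and Atp11b. Every probe set annotated to exactly 1 of these 8 symbols was taken, which gave 23 of the 45037 probe sets tested and 8 of the 18193 genes with such a probe set. Tmem30a was chosen by the low knockout values of 1 of its 5 probe sets, called the low-reading probe set below, so the values of that probe set are a description with no test. The flippases and Tmem30b entered by family name, although the genes were chosen with earlier results of these data known. Other P4-ATPases are described with the wider pathway.

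Brain without its cerebellum was profiled on Affymetrix expression arrays, with 1 array per sample, in 3 Gb5-deficient samples (Gb5ko, replicates 1 to 3) and 3 wild-type samples (Gb5wt, replicates 4 to 6). Gb5 is the G protein beta subunit encoded by Gnb5. The labels state that littermates of like age and sex were used, which the sex-linked transcripts below do not bear out array by array, and no further allele or agent is named. The sources used here do not state the age, the strain or how the Gnb5 allele was made. The design text calls the 3 samples of each genotype biological replicates. All values are deposited log2 expression values, and differences are Gb5ko minus Gb5wt on that scale.

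P4-ATPases use ATP to move phospholipids, chiefly phosphatidylserine and phosphatidylethanolamine, from the outer to the cytosolic leaflet of a membrane. Most need a CDC50 protein, of which Tmem30a is the widely expressed form, to leave the endoplasmic reticulum and to work. In neurons the resulting asymmetry bears on vesicle traffic and axon upkeep, and phosphatidylserine left on the outer leaflet is a signal for engulfment by phagocytes.

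The targeted gene was low in all 3 knockout arrays, and a few arrays stood apart in genes unrelated to lipid transport. Gnb5 read 3.67, 3.00 and 3.56 in Gb5ko and 8.79, 8.98 and 9.30 in Gb5wt. Xist, a transcript of the inactive X chromosome, read 10.65, 8.31 and 10.62 in Gb5ko and 4.96, 10.81 and 10.70 in Gb5wt. The Y-linked Eif2s3y read 2.96, 11.28 and 6.97 in Gb5ko and 11.26, 6.05 and 4.05 in Gb5wt. Gb5wt replicate 4 was thus low for Xist and high for Eif2s3y, and Gb5ko replicate 1 the reverse. Gb5ko replicates 2 and 3 and Gb5wt replicate 5 read well above the lowest array for both transcripts, so n counts arrays and may not count animals. Gb5ko replicate 3 had the highest level of Gh, the pituitary growth hormone gene, at 10.62 against 4.20 to 6.21 in the other arrays. The 6 neuronal markers averaged 12.25 to 12.34 in Gb5ko and 12.24 to 12.33 in Gb5wt. Of 6 cerebellar markers the granule cell gene Gabra6 was dim, at 2.80 to 3.54 over the arrays, while the Purkinje cell gene Pcp2 read 8.51 to 8.73. In limma 0 genes of the marker lists passed an adjusted p of 0.05, against 0.022% of all genes. At an unadjusted p under 0.05, reached by 15.6% of all genes, 3 of 6 fibroblast and 1 of 3 blood markers were lower. Of 6 microglial markers 3 were higher, and of 6 astrocyte markers 1 was higher and 3 were lower. In the other lists 2 oligodendrocyte, 2 choroid plexus and 1 neuronal marker were lower and 1 pituitary marker higher. Endothelial and cerebellar markers had 0. Mean levels of a list did not overlap between the groups for the 6 fibroblast markers (7.61 to 7.72 in Gb5ko, 7.95 to 8.06 in Gb5wt), the 6 astrocyte markers (10.54 to 10.69 and 10.76 to 10.89), the 3 blood markers (4.80 to 5.06 and 5.30 to 5.51) and the 6 microglial markers (7.46 to 7.57 and 7.30 to 7.37). The negative differences numbered 6 of 6 for fibroblasts, 4 of 6 for astrocytes, 3 of 3 for blood and 1 of 6 for microglia, where 40.1% of all genes were negative. Lists whose means overlapped included 5 oligodendrocyte markers (5 negative, median -0.25), 6 choroid plexus markers (6 negative, median -0.18), 6 endothelial markers (5 negative, median -0.11) and 6 pituitary markers (0 negative, median 0.79). In bulk tissue, fewer cells of a type and less RNA per cell cannot be told apart, and the part of these lists in the values below was not tested.

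Tmem30a lies on chromosome 9 with Gnb5, 84 annotated genes away in the RefSeq gene order of mouse assembly GRCm38.p6. RefSeq listed 1 transcript and 1 start for it. All 5 probe sets are assigned to the gene by symbol, and none was placed on that transcript or start. The 250 bases before that start, at chr9:79793431-79793680 on the minus strand of GRCm38.p6, are shown because the annotation gives no second start that would separate the probe sets. CpG dinucleotides are in capitals.

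Tmem30a promoter: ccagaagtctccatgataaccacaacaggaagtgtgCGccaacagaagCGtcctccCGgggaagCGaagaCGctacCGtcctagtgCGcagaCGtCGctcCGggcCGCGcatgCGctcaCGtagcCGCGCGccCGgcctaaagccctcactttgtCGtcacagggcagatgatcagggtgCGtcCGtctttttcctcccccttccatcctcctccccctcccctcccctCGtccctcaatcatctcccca

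This stretch held 22 CpG and 62.8% G or C, against medians of 6 CpG and 52.4% over 32851 RefSeq promoters of the same length, of which 14.8% held at least as many CpG. It had no match on either strand to TATAAA, found in 12.4% of those promoters, or to GGGCGG, found in 32.7%. The 2 motifs cannot overlap one another.

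The 5 Tmem30a probe sets gave different readings of the same gene. In the low-reading probe set the values were 6.29, 6.87 and 6.21 in Gb5ko and 9.16, 8.79 and 8.96 in Gb5wt. All 3 knockout arrays thus lay far below all 3 wild-type arrays. The means were 6.46 ± 0.362 (SD, n = 3) and 8.97 ± 0.186 (SD, n = 3), a difference of -2.52 ± 0.181 (SE), or 5.72-fold lower. Ranked within the whole table, its mean signal was at percentile 81.1 in wild types and at percentile 56.4 in knockouts, which is the middle of the range. The Gnb5 signal in knockouts ranked at percentile 18.8, but levels of different probe sets are not amounts of transcript. With 1 array left out at a time, the difference of the low-reading probe set ran from -2.72 to -2.39.

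**Figure D1:**
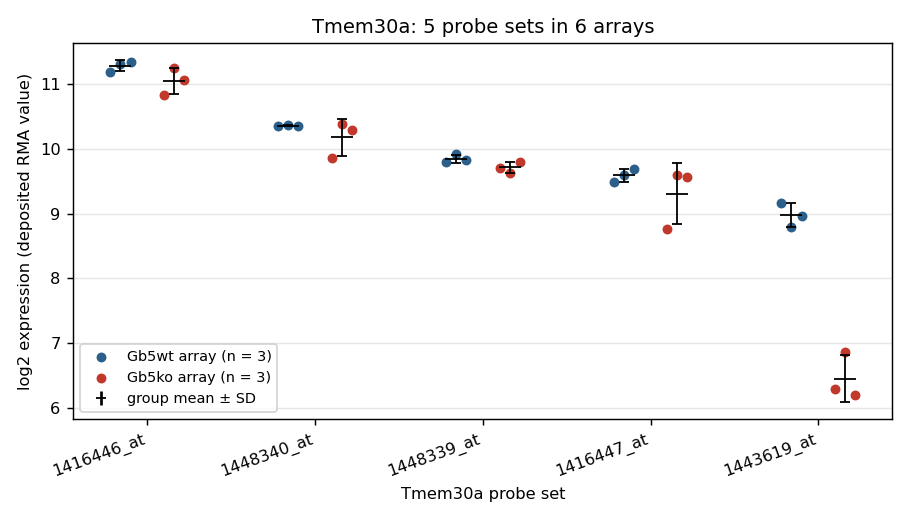
Deposited log2 values of the 5 Tmem30a probe sets (horizontal axis) in each array, blue for Gb5wt and red for Gb5ko, with group mean ± SD, n = 3. The knockout arrays sit at 6.21 to 6.87 in the low-reading probe set at the right, below 8.79 to 9.16 in wild types, while the groups overlap in the other 4 probe sets.

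The other 4 Tmem30a probe sets were bright in both groups and their groups overlapped. Probe set 1416446_at read 10.83, 11.24 and 11.05 in Gb5ko and 11.18, 11.30 and 11.34 in Gb5wt, a difference of -0.23 ± 0.124 (SE). Probe set 1448340_at read 9.85, 10.38 and 10.29 against 10.35, 10.36 and 10.35, a difference of -0.18 ± 0.142. The low knockout value in both was that of replicate 1.

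Probe set 1448339_at read 9.70, 9.63 and 9.80 in Gb5ko against 9.79, 9.91 and 9.82 in Gb5wt, a difference of -0.13 ± 0.101. Probe set 1416447_at read 8.76, 9.60 and 9.56 against 9.48, 9.59 and 9.69, a difference of -0.28 ± 0.208. Replicate 1 was again the low array in the latter, and without it the difference was -0.01. Without the same array, 1448340_at differed by -0.02, 1416446_at by -0.13 and 1448339_at by -0.13. Without Gb5ko replicate 2 the differences were -0.33 (1416446_at), -0.28 (1448340_at), -0.09 (1448339_at) and -0.43 (1416447_at). Without Gb5ko replicate 3 they were -0.24, -0.24, -0.18 and -0.41 in the same order. With all arrays the 4 differences were negative, with a median of -0.21 against 0.03 over all probe sets. In limma 0 of these 4 probe sets passed an adjusted p of 0.05 (adjusted p from 0.413 to 0.578), and 0 had an unadjusted p under 0.05. Their 95% intervals together ran from -0.75 to 0.19. The low-reading probe set was chosen for its fall, so its distance from these intervals is a description with no test.

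The distance between the low-reading probe set and the rest of the gene was computed within each array. The mean of the 4 other probe sets was 9.79, 10.21 and 10.18 in Gb5ko and 10.20, 10.29 and 10.30 in Gb5wt. The low-reading probe set lay at -3.50, -3.34 and -3.97 relative to it in the knockouts (-3.60 ± 0.328, SD, n = 3) and at -1.04, -1.50 and -1.33 in the wild types (-1.29 ± 0.234, SD, n = 3). The distance was therefore wider in every knockout array than in any wild-type array, by -2.31 between the means. It was -2.44 without Gb5ko replicate 2 and -2.13 without Gb5ko replicate 3. The 4 other probe sets were designed from 1 shared sequence record in the platform annotation and the low-reading probe set from a different one. The sources used here do not place the probes within the gene.

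**Figure D2:**
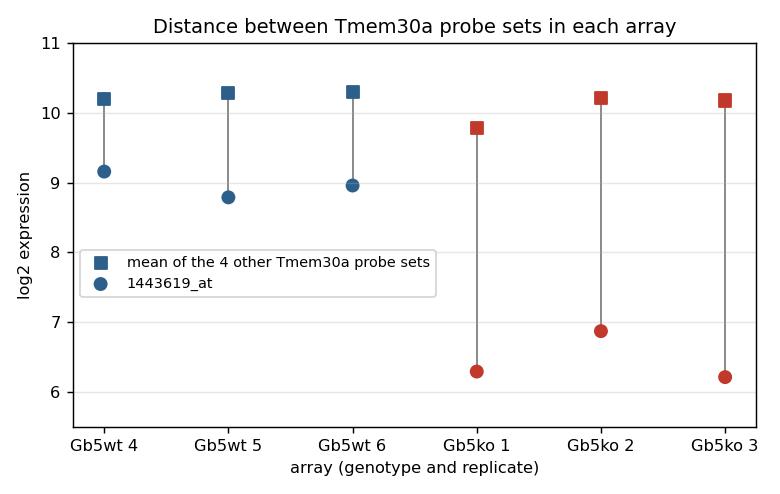
For each array (horizontal axis), the log2 value of the low-reading probe set (circle) and the mean log2 value of the 4 other Tmem30a probe sets (square), blue for Gb5wt and red for Gb5ko, joined by a line. The distances are -1.50 to -1.04 in wild types and -3.97 to -3.34 in knockouts, and the squares stay between 9.79 and 10.30.

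The probe sets of Tmem30a were also read together. With the log2 values of its 5 probe sets averaged, Tmem30a read 9.34 in Gb5ko and 10.01 in Gb5wt, a difference of -0.67 ± 0.118 (SE). That mean includes the chosen probe set, so its limma adjusted p of 0.195 gives no verdict on the gene. The mean of the 4 other probe sets differed by -0.21. Read through its brightest probe set, 1416446_at, the difference was -0.23.

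Among 34944 other probe sets with 1 gene, the 5 whose profile over the 6 arrays was most like that of the low-reading probe set belonged to Col12a1, Tmod3, Cep162, S100a5 and Gm19531. Likeness was the root mean square distance between log2 values after each probe set's own mean was subtracted. It was 0.392 for Col12a1, a collagen chain, 0.499 for Tmod3, a tropomodulin, 0.600 for Cep162, a centrosomal protein, 0.734 for S100a5, a calcium-binding protein, and 0.752 for Gm19531, a noncoding RNA. The median over all probe sets was 1.30. The other Tmem30a probe sets lay at 1.16 to 1.23, about as far as a flat profile would (1.28). The search began from a probe set chosen for its fall, so the nearest profiles had to be lower in knockouts too. Their differences ran from -2.94 for Tmod3 to -1.17 for Gm19531, and no test is read from them. Col12a1, Tmod3, Cep162 and Gm19531 are on chromosome 9, and S100a5 is on chromosome 3. The share of all probe sets on chromosome 9 is not given here, so nothing is read from these positions. S100a5 read 5.30, 6.87 and 6.16 in Gb5ko and 7.42, 7.50 and 7.13 in Gb5wt. As near or nearer than the last of these profiles were 5 probe sets without a single assigned gene.

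The flippase partners and Tmem30b did not pass the test. In limma 0 of their 18 probe sets had an adjusted p under 0.05 (adjusted p from 0.219 to 0.971), with differences from -0.26 to 0.46 and a median of -0.05, against a median of 0.03 over all probe sets. Over all 45037 probe sets 12 passed, 0.0266%, of which 10 were lower in knockouts (0.0222%). The low-reading Tmem30a probe set is among these 12 through the way it was chosen, and nothing is read from that. At an unadjusted p under 0.05 there were 2 of the 18, both higher in knockouts, 11.1%, against a background of 14.4% in either direction and 8.09% higher. The groups did not overlap in 5 of the 18, 27.8% against 21.5% of all probe sets, 2 of them higher and 3 lower. Levels of different probe sets are not amounts of transcript, and a percentile given here only places a signal within the table.

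**Figure D3:**
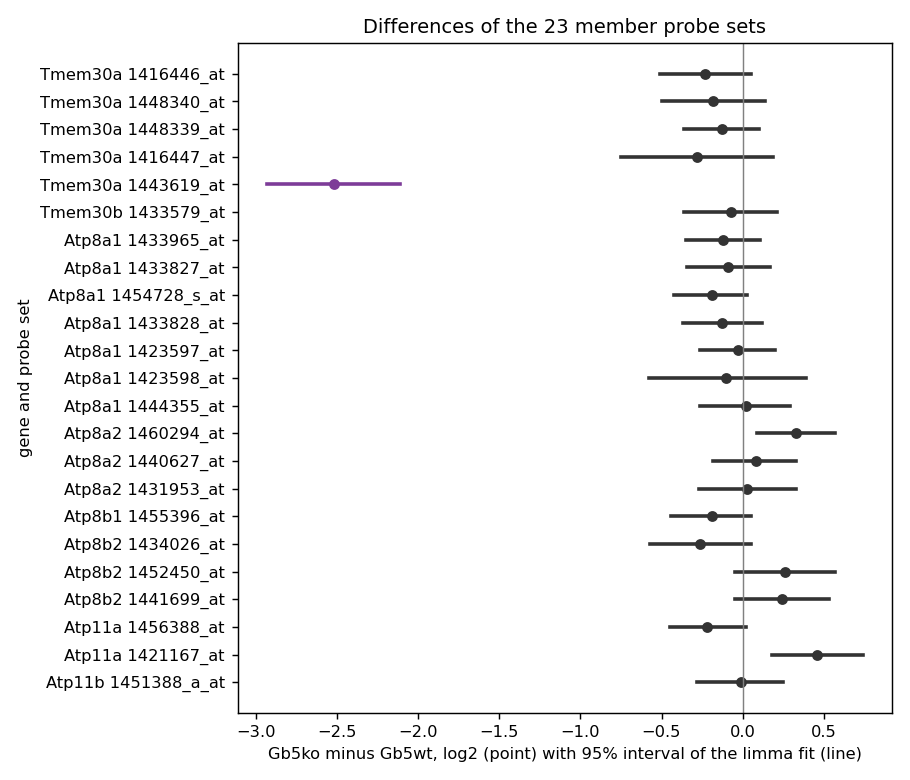
Gb5ko minus Gb5wt on the log2 scale (horizontal axis) for the 23 probe sets of the 8 genes, with 95% intervals of the limma fit, n = 3 against 3 arrays. The low-reading Tmem30a probe set (purple), chosen for its fall, lies at -2.52, and the other 22 lie between -0.28 and 0.46.

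Tmem30b, the second CDC50 subunit, was dim. Its probe set read 2.89, 3.06 and 3.20 in Gb5ko and 3.16, 3.26 and 2.95 in Gb5wt, at percentile 12.6 of all probe sets. The groups overlapped, with a difference of -0.07 ± 0.125 (95% interval -0.36 to 0.21). Tmem30b thus did not read higher in the knockouts, although a probe set this dim may not show a change.

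Atp8a1 and Atp8a2 are phosphatidylserine flippases that pair with Tmem30a, and Atp8a2 is known for axonal degeneration in mice that lack it. Atp8a1 had 7 probe sets, with means over the 6 arrays from 3.32 to 11.34. The brightest, 1433965_at, read 11.20, 11.33 and 11.32 in Gb5ko and 11.48, 11.32 and 11.41 in Gb5wt, a difference of -0.12 ± 0.1 (limma adjusted p = 0.603). The groups overlapped there and in 5 of the others. In 1454728_s_at they did not overlap, at 10.60, 10.59 and 10.56 against 10.90, 10.68 and 10.75, a difference of -0.19 ± 0.101 (limma adjusted p = 0.405). The suffix _s_at marks probes that can match more than 1 transcript or gene. Across the 7 probe sets of Atp8a1 the differences ran from -0.19 to 0.02, with 6 negative.

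Atp8a2 had 3 probe sets, all with a positive difference. The brightest, 1460294_at, read 7.32, 7.21 and 7.25 in Gb5ko and 6.87, 6.85 and 7.08 in Gb5wt. All 3 knockout arrays lay above all 3 wild-type arrays. The difference was 0.33 ± 0.106, with a 95% interval of 0.09 to 0.57, and did not pass over the whole table (limma adjusted p = 0.258). It stayed between 0.29 and 0.40 with 1 array left out. The other Atp8a2 probe sets, 1440627_at and 1431953_at, differed by 0.08 and 0.03 with overlapping groups.

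Atp8b1 and Atp8b2 belong to the class linked to phosphatidylcholine transport, and loss of human ATP8B1 causes a cholestatic liver disease. Atp8b1 read 5.84, 5.79 and 5.69 in Gb5ko and 6.13, 5.87 and 5.90 in Gb5wt. The knockout arrays lay just below the wild-type arrays, with a difference of -0.19 ± 0.11 (limma adjusted p = 0.442) that was -0.11 without Gb5wt replicate 4. The brightest Atp8b2 probe set, 1434026_at, read 8.65, 8.95 and 8.60 in Gb5ko and 9.09, 8.77 and 9.12 in Gb5wt, a difference of -0.26 ± 0.138. The groups overlapped there, as they did in the other Atp8b2 probe sets. Those had the opposite sign, 0.26 ± 0.137 in 1452450_at and 0.24 ± 0.127 in the dim 1441699_at. The first was 0.13 without Gb5ko replicate 2 and the second 0.13 without Gb5wt replicate 4. In limma 0 of the 3 passed, with adjusted p values from 0.409 to 0.415.

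Atp11a, a flippase of the plasma membrane that caspases switch off in dying cells, had 2 probe sets with differences of opposite sign, neither of which passed. In 1421167_at the values were 6.49, 6.37 and 6.37 in Gb5ko and 6.10, 6.03 and 5.72 in Gb5wt, with every knockout array higher. The difference was 0.46 ± 0.123 (95% interval 0.18 to 0.74, limma adjusted p = 0.219), the highest among the flippases. In 1456388_at, the brighter probe set, the values were 9.54, 9.75 and 9.54 against 9.77, 9.85 and 9.85, with every knockout array lower. That difference was -0.22 ± 0.104 (95% interval -0.45 to 0.02, limma adjusted p = 0.377). RefSeq listed 12 transcripts for Atp11a, 3 of them curated mRNAs, and neither probe set was placed on a transcript.

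Atp11b, a flippase of endosomal membranes, differed by less than its standard error. It read 11.32, 11.61 and 11.40 in Gb5ko and 11.56, 11.50 and 11.31 in Gb5wt, a difference of -0.01 ± 0.119 (95% interval -0.28 to 0.25). The groups overlapped.

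**Figure D4:**
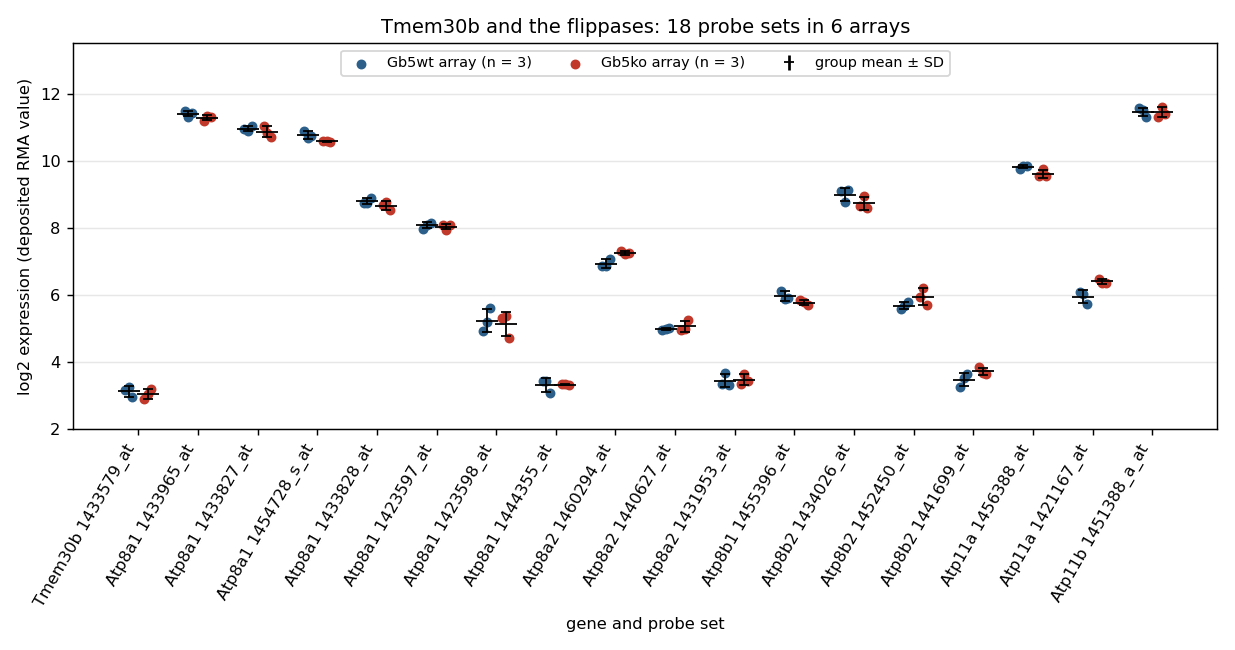
Deposited log2 values of the 18 probe sets of Tmem30b and the 6 flippases (horizontal axis) in each array, blue for Gb5wt and red for Gb5ko, with group mean ± SD, n = 3. The groups stand apart upward in Atp8a2 1460294_at and Atp11a 1421167_at and downward in Atp8a1 1454728_s_at, Atp8b1 1455396_at and Atp11a 1456388_at, and overlap in the other 13.

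Probe sets of the same flippase gene were also compared with each other. For the 4 flippases with several probe sets, each other probe set was subtracted from the brightest within every array, 11 pairs in all, and this gap was compared between genotypes. In Atp11a the gap was 3.05 to 3.37 in Gb5ko arrays and 3.66 to 4.13 in Gb5wt arrays, narrower in the knockouts, with a difference of -0.67 between the means. It differed by -0.52 between the 2 brighter Atp8b2 probe sets and by -0.50 between the brightest and the dimmest. In the other 8 pairs it differed by -0.14 to 0.30. A two-sided exact permutation test was run on each pair, and 0.1 is the smallest p that 3 against 3 arrays allow. It gave that p in 2 of the 11 pairs (Atp11a and 1 of Atp8b2), and 0.44 after Benjamini-Hochberg adjustment. No pair could have passed the threshold used for limma, so no conclusion about the gaps is drawn from this test. How often pairs of other genes reach 0.1 is not given here, so the count of 2 has no background. For Tmem30a, chosen for this pattern and given with no test, the low-reading probe set subtracted from the brightest gave a gap of 4.37 to 4.84 in Gb5ko and 2.02 to 2.51 in Gb5wt, wider in the knockouts by 2.28.

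The rest of the pathway was read from 5 lists, each gene through its brightest probe set. Of 69 genes 62 were measured, and in limma 0 passed an adjusted p of 0.05, against 0.022% of all 18193 genes. At an unadjusted p under 0.05, 8 were higher and 4 lower. Over all 18193 genes 1799 were higher and 1033 lower, 15.6% in either direction, so the table as a whole also leaned upward. Of the 62 genes 39 had a positive difference, where 59.9% of all genes did, and their median was 0.08 against 0.05 over all genes.

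Among 8 measured genes of the other P4-ATPases with Tmem30c, 7 had a positive difference (median 0.10). Atp9a and Atp9b, which work without a CDC50 subunit, had the smallest p values with Atp8b4. Atp9a read 11.02, 10.40 and 10.42 in Gb5ko and 10.21, 10.16 and 10.19 in Gb5wt, a difference of 0.43 ± 0.163 (limma adjusted p = 0.293). Replicate 1 was its highest array, and without it the difference was 0.23. The suffix _x_at of the Atp9a probe set marks probes that may cross-hybridize. Atp9b read 8.23, 8.09 and 8.27 against 7.61, 7.77 and 8.05, with groups apart and a difference of 0.39 ± 0.130 (limma adjusted p = 0.264). The dim Atp8b4 differed by 0.16.

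Scramblases let phospholipids cross the membrane in both directions without ATP. Of 16 measured, 8 had a positive and 8 a negative difference (median 0.03). Plscr2 was lowest at -0.46 ± 0.162 but dim, at percentile 12.5, and its groups overlapped. Tmem41b, a scramblase of the endoplasmic reticulum, differed by 0.24 in a probe set with the suffix _x_at, and Ano10 by 0.27. Of 13 lipid transporters of the ABC class, 8 were positive (median 0.16), with Abcc1 at 0.31, Abca2 at 0.45 and the cholesterol and phospholipid exporter Abca1 at -0.24. Without Gb5wt replicate 4 the difference of Abca2 was 0.27. Limma adjusted p values of these 6 named genes ran from 0.272 to 0.333.

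The lipids that flippases move are made by synthases of phosphatidylserine and phosphatidylethanolamine. The list of 12 measured synthesis genes also holds genes of phosphatidylcholine synthesis, such as Pcyt1a, Chpt1 and Pemt. Of the 12 genes 7 were positive (median 0.03), among them Chkb at 0.25 and Pcyt2 at 0.26. Etnk1, an ethanolamine kinase, read 9.48, 9.52 and 9.48 in Gb5ko and 9.75, 9.71 and 9.72 in Gb5wt, a difference of -0.23 ± 0.0921 (limma adjusted p = 0.310). Of 13 genes that recognize exposed phosphatidylserine or its bridging proteins, 9 were positive (median 0.17). The receptor gene Stab2 differed by 0.40 and the integrin genes Itgav and Itgb5 by -0.33 and 0.23, with limma adjusted p values of 0.259, 0.264 and 0.382. The probe set of Itgb5 also has the suffix _x_at, and without Gb5ko replicate 1 its difference was 0.14.

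**Figure D5:**
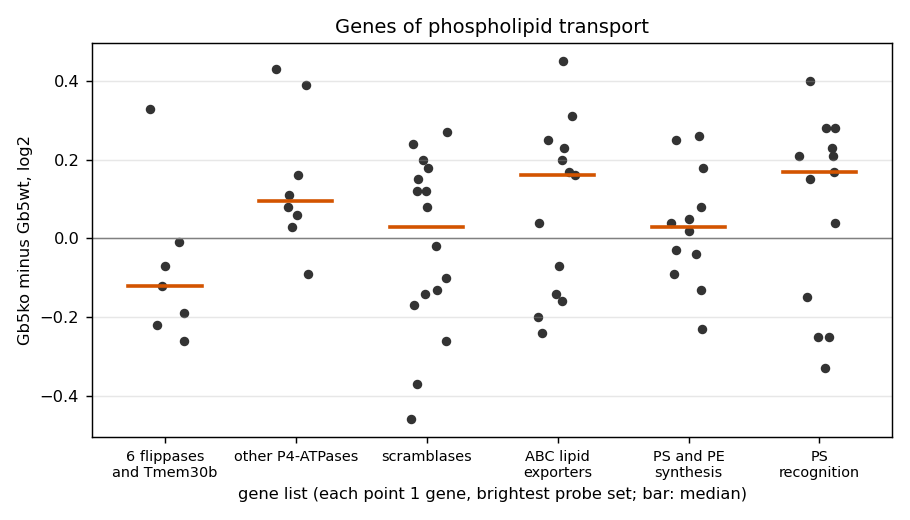
Gb5ko minus Gb5wt on the log2 scale (vertical axis) for genes of phospholipid transport by list, each point 1 gene through its brightest probe set and each bar a median; PS is phosphatidylserine and PE phosphatidylethanolamine. The synthesis list also holds genes of phosphatidylcholine synthesis, and the label ABC lipid exporters stands for lipid transporters of the ABC class. The medians lie between -0.12 for the 6 flippases with Tmem30b and 0.17 for phosphatidylserine recognition, and no gene shown passed the limma test.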

How the data were processed

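The deposited table gives 1 log2 expression value per probe set and array, already normalized; RMA and Partek are the tools listed in the submitters' processing notes, without versions. RMA keeps dim probe sets above 0 and shrinks large differences that end near background. No scanner file or detection call was used. The values ran from 1.91 to 14.37, array medians lay between 5.81 and 5.85, and no further normalization was applied.

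Of 45101 probe sets 64 controls were dropped, with no filter on signal. The platform annotation gave 1 gene for 34945 probe sets, several for 932 and none for 9160. Entrez identifiers matched 34741 to RefSeq (GRCm38.p6), which changed 0 symbols and served for names, gene order and the promoter only.

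The 2 groups were tested by limma (version 3.58.1, R 4.3.3; lmFit, then eBayes), two-sided, adjusting by Benjamini-Hochberg over 45037 probe sets, with 0.05 as the threshold and 4 residual plus 5.05 prior degrees of freedom. Precision is limited by the 6 arrays, and a difference had a median standard error of 0.123. The fit was tested on simulated data. If the samples of a genotype are not separate animals, p values cover only the spread between samples.

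The genes and lists were chosen with earlier results of these data known. Named are every probe set of the 8 genes, the 3 genes per list with the smallest p and the 5 nearest profiles. Alternatives covered a filter on dim signal, 2 normalizations, variance models, array weights, a threshold, a covariate, readings of a gene and each array left out. Figures were drawn with matplotlib 3.10.9.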

Additional observations from a re-analysis of the deposited data

How the results depend on the processing

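Among the 8 genes, the low-reading Tmem30a probe set was the only one past the threshold, 1 in the fit described. Its choice fixed that, so its persistence elsewhere shows nothing. The number was 0 with the brightest probe set per gene, which leaves that probe set out. It was also 0 with a gene's probe sets averaged, which mixes that probe set with the others of Tmem30a. The other Tmem30a probe sets, the flippases with Tmem30b and the pathway lists gave 0 calls in every alternative run for them, looser threshold and Eif2s3y as a covariate included. Over the whole table the 12 calls became 20 with only probe sets of mean log2 at least 5, 23 with trend and robust eBayes, 27 with array weights, 44 at an adjusted p under 0.1, and 4 either with the brightest probe set per gene or with averaged probe sets, where fewer were tested. For the first 3 of these the cause was not tested. The widening distance within Tmem30a ran from -2.44 to -2.13 with 1 array left out and from -2.32 to -2.31 in the other alternatives run. Of 530 values for 37 other named probe sets, 530 stayed on their side of the threshold and 16 changed sign, all of them uncalled. No paired analysis was possible because replicates are numbered 1 to 3 in knockouts and 4 to 6 in wild types. Without detection calls, dim probe sets such as that of Tmem30b could not be parted from background, and the arrays can neither place the low-reading probes in the gene nor measure protein.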
